A study of Homo sapiens with 14 samples.

Results

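The IGF binding protein genes IGFBP1 to IGFBP7 were followed through 14 CUT&Tag peak lists of LX-2, a human line of immortalised hepatic stellate cells. All 7 members, of 20136 protein-coding genes in the annotation, were found. Each was described by the peaks that overlap its gene body or the 50 kb on either side, a stretch called its window here. The cells carried a wild type genotype in every group and had spent 2 days on either a soft matrix or a stiff matrix. Antibodies were against phosphorylated JUN (p-JUN), H3K4me3, H3K27me3 and H3K27ac. The first 3 had 2 libraries per matrix, and H3K27ac had 1 merged list per matrix, so its replicate error is unknown. The p-JUN libraries labelled stiff were titled TCP, the study's abbreviation for tissue culture plastic, whereas the other stiff libraries were titled 40K. There was no other stiff p-JUN library, so plastic and stiff matrix cannot be told apart for p-JUN. All libraries came from the same cell line, and the study's methods call the replicates biological, while the labels do not say whether they were separate cultures. The p-values measure the spread between these libraries.

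IGF binding proteins are secreted carriers that hold insulin-like growth factors (IGF1 and IGF2) outside the cell. They lengthen the life of the growth factors and keep them from the receptor IGF1R until proteases such as PAPPA release them. IGFBP1 is best known as a liver product that responds to insulin, and IGFBP3 is the main carrier in blood. IGFBP7 binds IGFs weakly and is known as a matrix-associated protein. JUN is a subunit of the AP-1 transcription factor. H3K4me3 marks active promoters, H3K27ac active promoters and enhancers, and H3K27me3 repressed chromatin.

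In hg19 (GRCh37) with GENCODE release 44, IGFBP1 (ENSG00000146678) lies at chr7:45927959-45933259 on the plus strand and IGFBP3 (ENSG00000146674) at chr7:45951844-45961473 on the minus strand. The gene bodies of this tail-to-tail pair are 18.6 kb apart, so their windows share 81.4 kb and the same peaks. IGFBP2 (ENSG00000115457) at chr2:217497551-217529159, plus strand, and IGFBP5 (ENSG00000115461) at chr2:217536828-217560272, minus strand, form a second tail-to-tail pair with 7.67 kb between them. IGFBP4 (ENSG00000141753) lies at chr17:38599702-38613977 and IGFBP6 (ENSG00000167779) at chr12:53491220-53496129, both on the plus strand. IGFBP7 (ENSG00000163453), at chr4:57896939-57976551 on the minus strand, is the longest member at 79.6 kb. Together the windows cover 695 kb. Regions are named below by the distance of their summit from the start site of the member, positive in the direction of transcription.

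The sequences at 9 p-JUN summits show the contrast between summits with and without an AP-1 motif within 50 bp. The first 4 lines are the regions with an AP-1 motif within 50 bp of the summit in all 4 p-JUN libraries. The other 5 are the strongest regions of IGFBP1, IGFBP4, IGFBP6 and IGFBP7 by −log10 q, and the region nearest upstream of IGFBP1, where the motif was missing from these bases. Of these 5, IGFBP1 −13.5 kb, IGFBP1 −2.9 kb and IGFBP6 +2.0 kb held a motif elsewhere in the region, 35 to 53 bp, 138 to 194 bp and 51 to 82 bp from the summits of the 4 libraries. The motif searched was TGACTCA or its reverse complement TGAGTCA, which covers both strands. Each line gives 101 bases of the plus strand of GRCh37, centred on the summit of the library with the highest fold, with the AP-1 motif in capitals. In the IGFBP7 +87.1 kb line the capitals mark CATTCC, the TEAD motif searched as GGAATG or CATTCC.
IGFBP3 −2.7 kb, chr7:45964081-45964181, plus strand: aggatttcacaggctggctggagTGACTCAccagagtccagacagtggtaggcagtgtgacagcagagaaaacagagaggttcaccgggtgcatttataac
IGFBP5 +30.8 kb, chr2:217529403-217529503, plus strand: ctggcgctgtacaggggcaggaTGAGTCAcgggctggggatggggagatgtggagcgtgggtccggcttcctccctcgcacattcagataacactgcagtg
IGFBP6 −16.6 kb, chr12:53474596-53474696, plus strand: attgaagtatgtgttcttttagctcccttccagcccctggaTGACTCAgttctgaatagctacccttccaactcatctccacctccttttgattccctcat
IGFBP7 +89.7 kb, chr4:57886789-57886889, plus strand: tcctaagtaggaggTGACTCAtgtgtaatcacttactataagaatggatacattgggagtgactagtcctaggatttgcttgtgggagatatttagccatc
IGFBP1 −13.5 kb, chr7:45914425-45914525, plus strand: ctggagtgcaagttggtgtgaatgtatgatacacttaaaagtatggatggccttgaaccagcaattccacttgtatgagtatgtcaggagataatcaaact
IGFBP1 −2.9 kb, chr7:45925008-45925108, plus strand: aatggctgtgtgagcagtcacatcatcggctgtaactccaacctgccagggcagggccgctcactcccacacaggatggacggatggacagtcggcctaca
IGFBP4 +42.9 kb, chr17:38642512-38642612, plus strand: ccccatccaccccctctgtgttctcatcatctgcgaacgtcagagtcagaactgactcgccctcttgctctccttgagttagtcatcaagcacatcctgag
IGFBP6 +2.0 kb, chr12:53493171-53493271, plus strand: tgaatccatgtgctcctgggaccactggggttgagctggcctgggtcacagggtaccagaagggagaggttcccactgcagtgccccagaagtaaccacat
IGFBP7 +87.1 kb, chr4:57889446-57889546, plus strand: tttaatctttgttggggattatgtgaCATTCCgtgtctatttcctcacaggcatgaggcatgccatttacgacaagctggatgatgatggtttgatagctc

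Overlapping peaks (by 1 bp or more) from the libraries of a mark were joined into regions. In the windows there were 32 p-JUN regions, of which 19 were called in all 4 libraries, beside 65.8% of all 61411 p-JUN regions. All 7 member windows held at least 1 such region, beside 84.5% of protein-coding genes. IGFBP1 and IGFBP3 shared the same such regions, as did IGFBP2 and IGFBP5. The density ran from 1.52 regions per 100 kb at IGFBP2 to 3.90 at IGFBP7, beside a median of 1.85 over all genes. Of the 19 regions, 6 lay in an intron of a member, 4 in another protein-coding gene, 2 in the non-coding IGFBP7-AS1 and 7 between genes. Within 1 kb of a protein-coding start site lay 3 of them (15.8%), beside 18.2% of all p-JUN regions called in all 4 libraries.

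The members fell into several kinds at their own start sites. H3K4me3 lay within 1 kb of a start site in all 4 libraries at IGFBP4, IGFBP5, IGFBP6 and IGFBP7, 4 of 7 members, beside 62.8% of protein-coding genes. IGFBP3 had it in 3 of 4 libraries, all but stiff replicate 1, and IGFBP1 and IGFBP2 in none. H3K27ac was present on both lists at IGFBP4 and IGFBP6 (2 of 7, beside 21.3% of genes), on the soft list alone at IGFBP7, and on neither list at the other 4. The IGFBP7 call was lost when both lists were cut to the length of the shorter one. The p-JUN peak of IGFBP6 was the only start-site peak called in all 4 libraries (1 of 7 members, beside 38.2% of genes). IGFBP3 had a p-JUN peak within 1 kb in stiff replicate 2 and IGFBP4 in soft replicate 1, each in 1 library. H3K27me3 lay at the start site of IGFBP2 in soft replicate 1 and stiff replicate 1, with folds of 2.49 and 2.79, and at IGFBP5 in soft replicate 1 alone. No member had H3K27me3 there in all 4 libraries, beside 2.43% of genes.

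The 14 other genes of the IGF pathway that were examined comprise ligands, receptors, substrates, proteases and their inhibitors. H3K4me3 lay within 1 kb of a start site in all 4 libraries at 9 of the 14, beside 62.8% of protein-coding genes. The 9 included INSR, the insulin receptor, and the substrates IRS1 and IRS2. The ligand IGF1 had no peak of any mark there, and neither had PAPPA2 or IGFALS, which stabilises IGFBP3 in blood. The ligand IGF2 had H3K4me3 in 3 of 4 libraries. Start-site p-JUN in all 4 libraries was found at IGF1R, IGF2R and IRS2 (3 of 14, beside 38.2% of protein-coding genes). The protease PAPPA, which cleaves IGFBP4, and its inhibitors STC1 and STC2 had H3K4me3 in all 4 libraries. H3K27me3 was called at the start site of none of the 14 in any library. IGF1R, the signalling receptor, was the only pathway gene with start-site H3K27ac on both lists (1 of 14, beside 21.3% of protein-coding genes). H3K4me3 was called there in soft replicate 1 and stiff replicate 2 alone.

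At IGFBP1 and IGFBP3 the p-JUN regions called in all 4 libraries lay more than 1 kb from the start sites. The region 13.5 kb upstream of IGFBP1 (chr7:45914119-45914839, intergenic, 1.8 kb from the start site of CCDC201) had p-JUN folds of 10.8 and 12.4 on soft and 12.3 and 12.3 on stiff. Fold is the enrichment of the summit over the local background of the same library. The groups overlapped, with soft replicate 1 the lowest. The region 2.9 kb upstream of IGFBP1 had folds of 9.94 and 8.36 on soft and 10.2 and 11.9 on stiff. Here both stiff libraries stood above both soft libraries, with 113 and 160 fragments at the summit on stiff and 104 and 68 on soft. After each library was centred on its median, the log2 difference (stiff minus soft) was 0.23 ± 0.12 (SE, n = 2 per matrix, limma adjusted p = 0.60). Both regions carried H3K27ac on both lists and H3K4me3 in no library. In the region 2.7 kb upstream of IGFBP3, p-JUN folds were 7.22 and 7.23 on soft and 7.12 and 5.78 on stiff. Both stiff values lay below both soft values before centring, and after it the groups overlapped, with a log2 difference of −0.22 ± 0.15 (SE, n = 2 per matrix, limma adjusted p = 0.714). No histone mark overlapped that region. The AP-1 motif of the IGFBP3 line above was 21 to 26 bp from the summits of the 4 libraries, whose summits lay within 5 bp of each other.

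IGFBP3 also had a p-JUN peak at +0.8 kb in stiff replicate 2 (fold 5.94, 51 fragments), in coding sequence. H3K4me3 at +1.4 kb of IGFBP3 had folds of 5.69 and 5.86 on soft and 5.26 in stiff replicate 2. Each call was thus missing from stiff replicate 1 of its own antibody, and equal replicate numbers of different antibodies are separate libraries. The p-JUN peak was also missing from both soft libraries.

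At IGFBP2 and IGFBP5 p-JUN was called without H3K27ac on either list. The region at +30.8 kb of IGFBP5, which lies between the ends of both gene bodies and is the strongest of their windows by −log10 q, had folds of 6.43 and 7.53 on soft and 8.11 and 9.13 on stiff. Both stiff libraries stood above both soft libraries, and the log2 difference was 0.26 ± 0.11 (SE, n = 2 per matrix, limma adjusted p = 0.531). An AP-1 motif lay 14 to 25 bp from each summit, as the IGFBP5 line above shows. A region in an intron of IGFBP2 at +15.5 kb had higher folds, 8.55 and 8.89 on soft and 9.68 in stiff replicate 2, but was not called in stiff replicate 1. Another region, in an intron of IGFBP5 at +13.1 kb, had folds of 6.06 and 8.61 on soft and 7.17 and 7.03 on stiff, so the soft libraries spanned the stiff ones. H3K4me3 lay at +1.2 and +2.6 kb of IGFBP5 in all 4 libraries, with folds from 4.36 to 5.66, and none was called at IGFBP2. The 5 H3K27me3 regions of the windows were all at this pair, each called in soft replicate 1 and 1 of them also in stiff replicate 1. None was called in all 4 libraries, beside 10.2% of all H3K27me3 regions, and none overlapped p-JUN. The list of soft replicate 1 was also the longest of the mark, with 19843 peaks beside 6974 to 9228 in the other 3, and with lists of equal length it held 3 peaks in the windows beside 1 in stiff replicate 1 and 0 in the others.

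At IGFBP4 the strongest p-JUN region lay 42.9 kb downstream of the start site, in an intron of TNS4, which encodes an adhesion protein of the tensin family. Its folds were 11.1 and 11.0 on soft and 10.8 and 11.3 on stiff, with 260 to 308 fragments at the summit. After centring both soft libraries were the higher, by a log2 difference of −0.04 ± 0.09 (stiff minus soft, SE, n = 2 per matrix, limma adjusted p = 0.934). The region carried H3K27ac on both lists and no AP-1 motif anywhere in its 819 bp. In an intron just inside IGFBP4, at +0.8 kb, H3K4me3 folds were 7.85 and 7.20 on soft and 7.59 and 7.45 on stiff, and the groups overlapped. Farther into IGFBP4, also in an intron, at +9.8 kb, p-JUN folds were 4.84 and 5.03 on soft and 5.10 and 6.08 on stiff. Both stiff libraries were higher, with a log2 difference of 0.13 ± 0.10 (SE, n = 2 per matrix, limma adjusted p = 0.750). The summits of the 4 libraries spread over 748 bp in this merged region, and soft replicate 1 had 2 peaks in it. These folds therefore do not all measure the same site. The p-JUN region at −25.6 kb belonged to the start site of TOP2A, a DNA topoisomerase of dividing cells, where H3K4me3 had the highest folds of any window (12.6 to 13.2).

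IGFBP6 was the member with p-JUN within 1 kb of a start site in all 4 libraries. The median summit lay in an intron at +2.0 kb, 0.5 kb from the nearest coding start site. The merged region spanned 1800 bp (chr12:53491585-53493384) and held 322 and 288 fragments at the summit on soft and 257 and 312 on stiff. Its folds were 7.70 and 7.91 on soft and 7.40 and 8.47 on stiff, and the groups overlapped, with a log2 difference of −0.02 ± 0.09 (SE, n = 2 per matrix, limma adjusted p = 0.965). The nearest AP-1 motif was 51 to 82 bp from its summits. H3K4me3 over the start site had folds of 6.86 and 7.03 on soft and 7.89 and 7.67 on stiff. Both stiff libraries stood above both soft libraries, with a log2 difference of 0.09 ± 0.07 (SE, n = 2 per matrix, limma adjusted p = 0.727). Another p-JUN region at −16.6 kb, near SPRYD3, had folds of 4.70 and 4.91 on soft and 5.93 and 5.72 on stiff. Here too both stiff libraries were higher (log2 difference 0.23 ± 0.11, SE, n = 2 per matrix, limma adjusted p = 0.548), and an AP-1 motif lay 6 to 27 bp from the summits. The region in SOAT2 at +26.6 kb had folds of 8.70 and 10.5 on soft and 9.59 and 10.8 on stiff, and the groups overlapped.

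The window of IGFBP7 was the longest, at 180 kb beside 105 kb for IGFBP6. Per 100 kb it held 3.90 p-JUN regions called in all 4 libraries, beside 3.81 for IGFBP6. By number IGFBP7 had the most of these regions, 7. None lay within 1 kb of its start site, although H3K4me3 flanked that site in all 4 libraries at −0.5 and +0.5 kb. Inside the gene, p-JUN regions stood at +15.4, +28.9 and +44.8 kb. The region at +28.9 kb had folds of 13.0 and 11.2 on soft and 12.6 and 11.8 on stiff, and the groups overlapped. Beyond the end of IGFBP7, the regions at +87.1 and +89.7 kb lay in POLR2B, which encodes a subunit of RNA polymerase II. The one at +87.1 kb, the strongest of the window by −log10 q, had folds of 9.97 and 9.45 on soft and 10.02 and 10.5 on stiff. Stiff libraries were higher in fold, but after centring the groups overlapped (log2 difference 0.03 ± 0.09, SE, n = 2 per matrix, limma adjusted p = 0.952).

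Upstream of IGFBP7, in the non-coding IGFBP7-AS1, the p-JUN region at −9.0 kb had folds of 5.72 and 7.38 on soft and 7.96 and 8.91 on stiff. Both stiff libraries were higher, with a log2 difference of 0.33 ± 0.14 (SE, n = 2 per matrix, limma adjusted p = 0.526). Without soft replicate 1 this difference was 0.14 and without soft replicate 2 it was 0.52. At the same place H3K27ac was on the soft list alone (fold 9.79, 45 fragments), and H3K4me3 was called in all 4 libraries. At −0.5 kb, H3K4me3 folds were 4.88 and 6.12 on soft and 7.18 and 6.68 on stiff. Both stiff libraries were higher, with a log2 difference of 0.26 ± 0.11 (SE, n = 2 per matrix, limma adjusted p = 0.50), which was 0.13 without soft replicate 1. At +44.8 kb p-JUN folds were 7.76 and 6.92 on soft and 6.84 and 7.29 on stiff, and after centring both soft libraries were higher (log2 difference −0.10 ± 0.10, SE, n = 2 per matrix, limma adjusted p = 0.833). Soft replicate 2 and stiff replicate 1 were then both at −0.32 after rounding, and without soft replicate 1 the difference was −0.02.

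**Figure D1:**
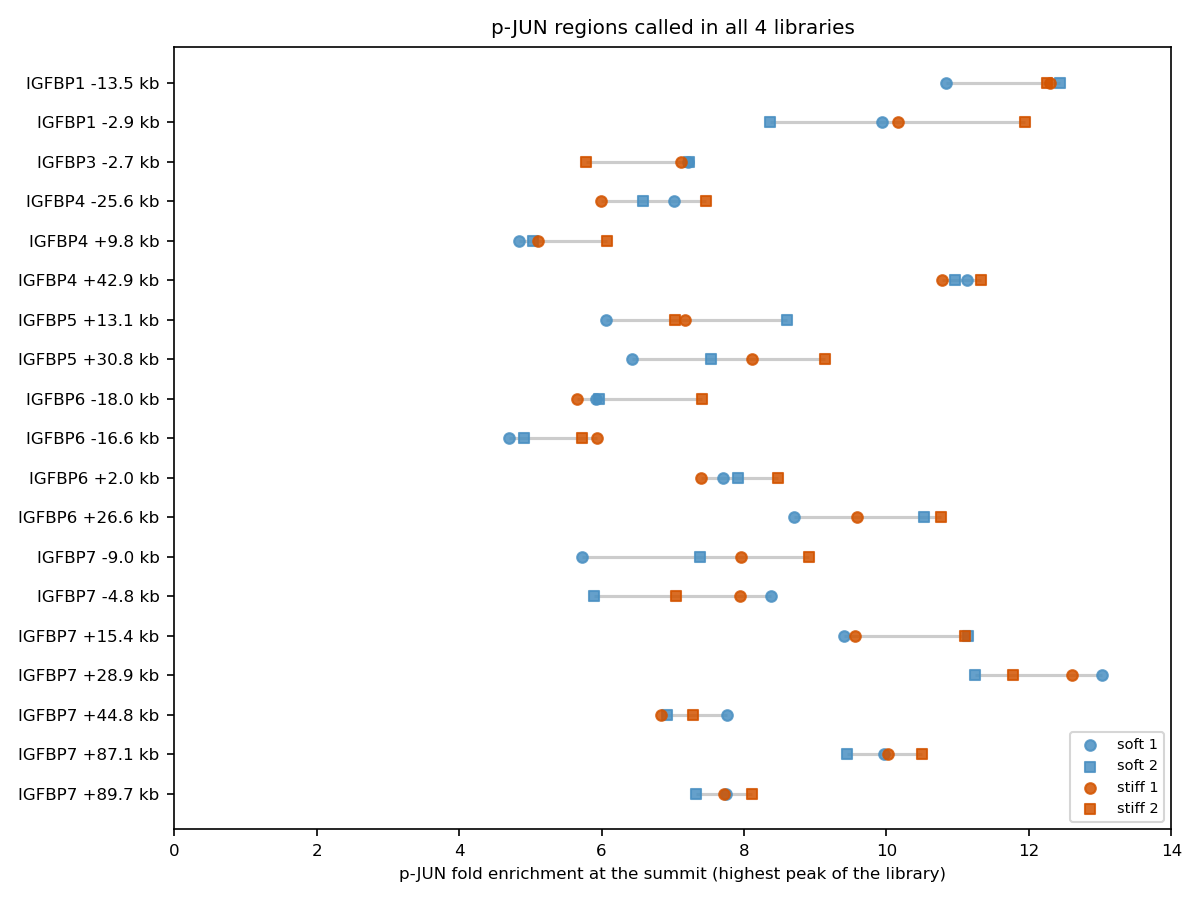
p-JUN fold enrichment (x axis, highest peak of each library) in the 19 regions of the windows that were called in all 4 libraries (y axis). Blue marks are soft and orange marks stiff, circles replicate 1 and squares replicate 2, and grey lines span the 4 values. Folds run from 4.70 at IGFBP6 −16.6 kb to 13.0 at IGFBP7 +28.9 kb, and soft and stiff marks mix in most rows.

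The question of whether p-JUN and histone marks around these genes differed between matrices was put first to the number of peaks in all windows. Of p-JUN peaks, the soft libraries had 28 and 22 and the stiff libraries 22 and 27. The means were 25.0 ± 4.24 and 24.5 ± 3.54 (SD, n = 2 per matrix), and the two-sided exact permutation p was 1.00. Each matrix had 13 and 14 H3K4me3 peaks in its libraries, with a two-sided exact permutation p of 1.00. H3K27me3 gave 5 and 0 for the 2 soft libraries against 1 and 0 for the 2 stiff ones, with a two-sided exact permutation p of 1.00. With 2 libraries against 2 the smallest p this test can give is 0.33, so no count could pass 0.05.

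No p-JUN region of the windows was called in both stiff libraries and no soft one, and none the reverse, among 32 regions. Over all p-JUN regions these shares were 2.75% and 1.74%. Calls in a single library made up 7 of the 32, beside 14.1% of all regions. They were 2 in soft replicate 1, 2 in stiff replicate 1 and 3 in stiff replicate 2. The strongest was 26.1 kb upstream of IGFBP7 in stiff replicate 2, with a fold of 14.5, the highest p-JUN fold in any window, and 50 fragments. Of 8683 regions called in 1 library in the whole series, 9 had a fold at least that high, and their median was 5.40. H3K27ac overlapped it on the soft list (fold 7.35) and not on the stiff list.

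The fold was then compared by limma over all regions called in all 4 libraries, with Benjamini-Hochberg adjustment. For p-JUN none of 40433 regions passed an adjusted p of 0.05 (0%), although 3833 had an unadjusted p under 0.05. In the windows 1 of 19 did, IGFBP7 −9.0 kb, and the adjusted p ran from 0.526 to 0.966. The log2 differences of the 19 ran from −0.22 to 0.33 with a median of 0.03, beside a 5th to 95th percentile range of −0.27 to 0.27 over all regions. Both stiff libraries stood above both soft libraries in 5 of the 19, beside 18.5% of all regions, and the reverse held in 2, beside 21.2%. For H3K4me3 none of 16098 regions passed by limma (0%), with 1635 at an unadjusted p under 0.05. In the windows 12 of 15 regions were called in all 4 libraries, beside 78.9% of all H3K4me3 regions. None of the 12 had an unadjusted p under 0.05. The stiff pair was higher in 2 of them and the soft pair in 2, beside 19.3% and 22.4% of all regions. H3K4me3 was present in all 4 libraries in 5 of 7 windows, beside 82.3% of protein-coding genes, with IGFBP2 counted through the regions at IGFBP5. The windows of IGFBP1 and IGFBP3 held no such region, and the one they share at +1.4 kb of IGFBP3 was called in 3 libraries.

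**Figure D2:**
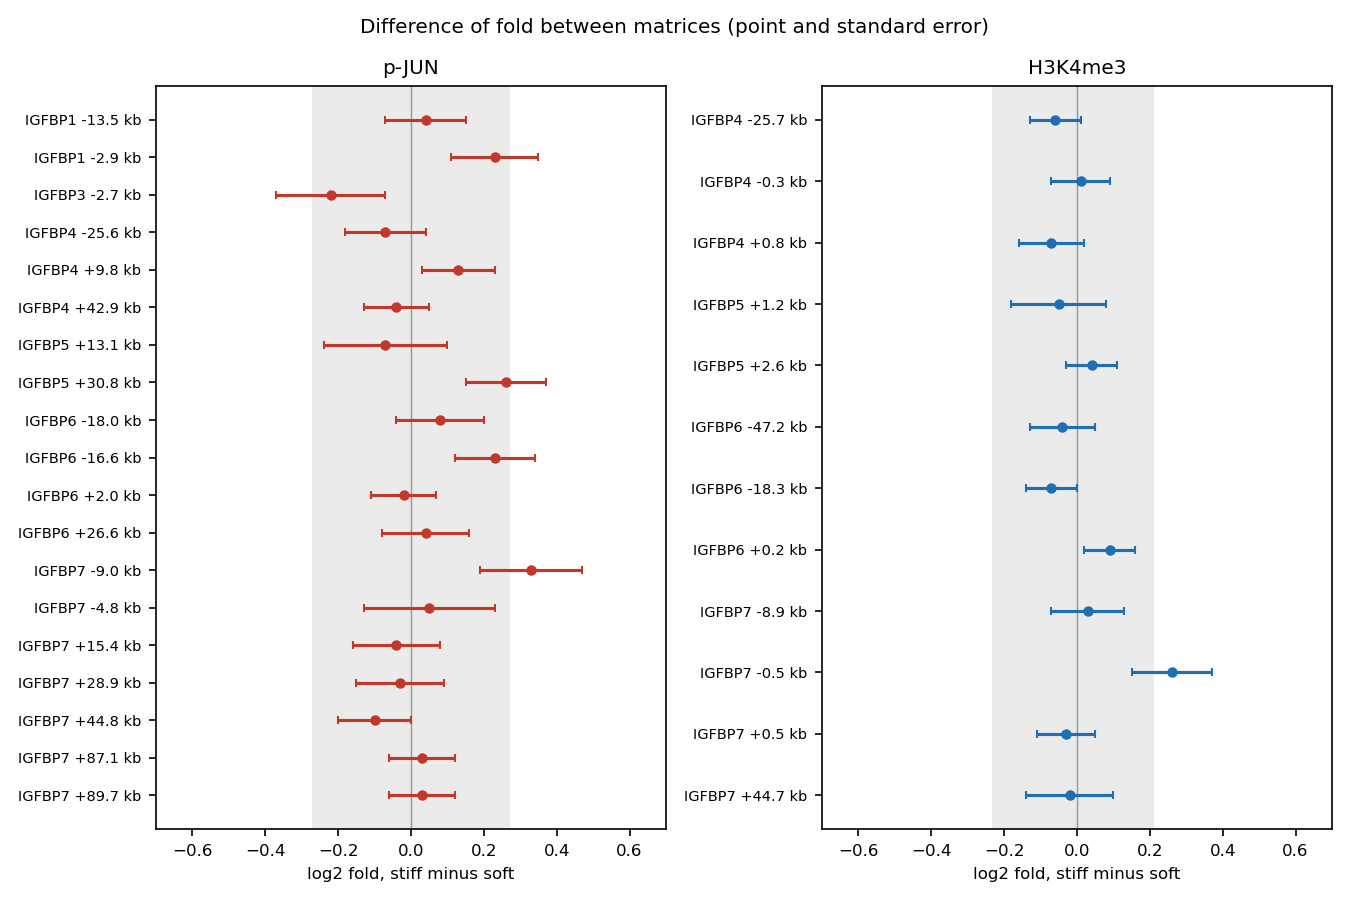
Difference of the median-centred log2 fold (x axis, stiff minus soft, point and standard error) in regions of the windows called in all 4 libraries, for p-JUN (19 regions) and H3K4me3 (12 regions). Grey bands are the 5th to 95th percentile over all regions of the mark, −0.27 to 0.27 for p-JUN. IGFBP7 −9.0 kb lies at 0.33 and IGFBP7 −0.5 kb (H3K4me3) at 0.26, and none passed the test.

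H3K27ac gave 15 peaks in the windows on the soft list and 10 on the stiff list. The log2 ratio of −0.58 had a 95% exact binomial interval of −1.90 to 0.67, which covers counting error only, and the lists as a whole had a log2 ratio of −0.45. Of 16 regions, 9 were on both lists (54.1% of all H3K27ac regions were), 6 on the soft list alone (35.0% of all) and 1 on the stiff list alone (10.9% of all). A region on both lists lay in 5 of 7 windows, beside 58.9% of protein-coding genes, with the same regions counted for IGFBP1 and for IGFBP3. The windows without one, of IGFBP2 and IGFBP5, also overlap each other. H3K27me3 in all 4 libraries lay in none of the 7, beside 13.1%.

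The soft-only calls were 4 at IGFBP7 and 2 at IGFBP6. At IGFBP7 they stood at +28.9 kb (fold 8.23), −0.5 kb (5.56), −8.9 kb (9.79) and −26.1 kb (7.35), and the stiff-only call was at +15.4 kb (6.77). With both lists cut to the length of the shorter one, soft-only and stiff-only calls numbered 2 and 1 at IGFBP7, where −0.5 and −26.1 kb were lost. In the other windows they numbered 1 and 2, so the excess on soft shrank at IGFBP7 and turned around elsewhere. With −log10 q of at least 10 they numbered 4 and 1 at IGFBP7 and 3 and 1 in the other windows, but were not all the same regions. IGFBP7 −26.1 kb (9.69) and IGFBP6 +0.2 kb (7.14) dropped out. Regions on both lists before then counted as soft-only, as their stiff peaks fell short: IGFBP7 +44.6 kb (8.78) and IGFBP6 −17.8 and +1.3 kb (8.72 and 7.71). IGFBP1 −13.5 kb counted as stiff-only, with 9.81 on soft. The p-JUN regions at +28.9, +15.4 and −9.0 kb of IGFBP7 were called in all 4 libraries. There H3K27ac was on 1 list where p-JUN was on every list, the stiff list at +15.4 kb and the soft list at the others.

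The pair of regions upstream of IGFBP1 went the other way. At −13.5 kb the H3K27ac fold was 6.45 on soft and 9.11 on stiff, with 19 and 31 fragments at the summit. At −2.8 kb it was 7.63 and 9.66, with 20 and 37 fragments. Their log2 ratios of 0.50 and 0.34 were above those of 99.0% and 96.0% of the 11044 regions on both lists, whose median was −0.11 and of which 33.9% were higher on stiff. With 1 list per matrix this difference has no replicate check. The other 7 shared regions had log2 ratios from −0.31 at IGFBP6 −17.8 kb to 0.22 at the TOP2A start site near IGFBP4.

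**Figure D3:**
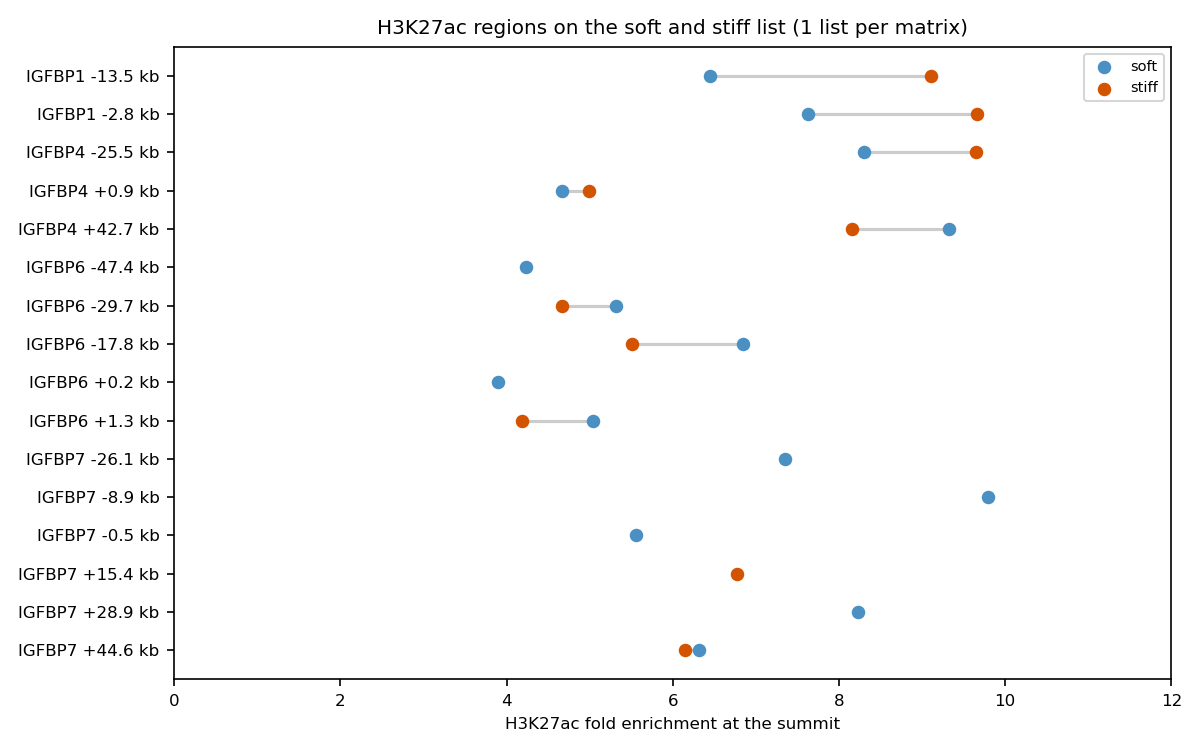
H3K27ac fold enrichment at the summit (x axis) on the soft list (blue) and the stiff list (orange) in the 16 regions of the windows (y axis). Grey lines join regions on both lists, and a lone point was on 1 list. Both IGFBP1 regions lie higher on stiff (9.11 against 6.45 and 9.66 against 7.63), and 4 lone soft points belong to IGFBP7.

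Of the 19 p-JUN regions, 7 overlapped H3K27ac on both lists, beside 24.0% of all p-JUN regions called in all 4 libraries, and 5 overlapped H3K4me3 in all 4 libraries, beside 19.7%. An AP-1 motif lay within 50 bp of a summit in 10 of the 19, beside 43.4% of all such regions. It lay anywhere in the region in 12, and a longer region has more room for it. That wider share was not computed over all regions, so the 12 cannot be set beside 43.4%. The regions without any motif were IGFBP4 −25.6 and +42.9 kb, IGFBP6 −18.0 kb, and IGFBP7 −9.0, −4.8, +28.9 and +87.1 kb. In single libraries, 32.1% and 40.9% of p-JUN peaks in the windows held the motif on soft and 31.8% and 37.04% on stiff. Over the whole lists the shares were 30.6% to 32.8%, and 1 kb away from the summits 1.71% to 1.74%. The difference of the means was −2.10 percentage points, stiff minus soft (two-sided exact permutation p = 0.667). The CRE motif TGACGTCA was at none of the summits in the windows and at 0.726% to 0.834% of all peaks. The TEAD motif was at the summits of IGFBP7 +28.9 and +87.1 kb in all 4 libraries. Of p-JUN peaks in the windows 10.7% to 18.5% held it, beside 9.38% to 10.1% of the whole lists. In the promoters of the members, 250 bases before to 50 after the start of the gene, neither AP-1 nor CRE letters were present, whereas 3.97% and 2.28% of 20136 promoters held them. The TEAD letters were in the promoter of IGFBP5 alone among the members, and in 12.8% of all promoters.

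The lists held 48163 to 54168 p-JUN, 18096 to 18857 H3K4me3 and 13322 to 18238 H3K27ac peaks. The median summit held 60 to 64 fragments for p-JUN, 120 to 207 for H3K4me3 and 26 to 27 for H3K27ac. Depth is unknown for H3K27me3. As a check of the cell type, H3K4me3 lay at the start sites of 6 of 8 stellate or myofibroblast markers in all 4 libraries. This stood beside 62.8% of protein-coding genes, so the count alone does not single out these markers. The 6 included ACTA2, COL1A1 and PDGFRB, and COL1A2 had none in any library. Hepatocyte markers (0 of 4), endothelial markers (0 of 3) and leukocyte markers (0 of 3) had none in any library, and of 3 epithelial markers EPCAM alone had it.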

How the data were processed

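Peak lists of 14 CUT&Tag libraries were used. The authors used Trim Galore for trimming, Bowtie2 for alignment to hg19 and Picard to mark duplicates. The study's methods name MACS2 for the ATAC-seq peaks and no peak caller for CUT&Tag. Versions and options are not given in the sources used here. Each deposited list holds a score, a fold (a ratio of summit over local background), and both a −log10 p and a −log10 q value, in narrow peaks for p-JUN, H3K4me3 and H3K27ac and broad peaks for H3K27me3. Because no scaling was applied between lists, deeper sequencing can lengthen a list. Fragments at a summit were recovered from the deposited fold and −log10 p (relative error under 1e-04) for at least 99.9% of narrow peaks.

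Groups followed the treatment label. Peaks on 24 chromosomes were assigned to genes of GENCODE release 44 on GRCh37 and merged at 1 bp overlap. None of 351202 peaks ended beyond a GRCh37 chromosome. Two-sided exact permutation tests were run on counts, and limma 3.58.1 (R 4.3.3) on median-centred log2 fold. Other steps used scipy 1.17.1, pandas 2.3.3, numpy 2.4.6 and matplotlib 3.10.9 in python 3.11.15. The steps were tested on simulated data. Members, gene lists and named regions (start-site peaks, the strongest p-JUN and H3K27ac region of a window, and regions whose groups did not overlap or were called on 1 matrix alone) were chosen with earlier results of these data known. Regions named for non-overlapping groups were chosen after their values were seen.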

Additional observations from a re-analysis of the deposited data

How the results depend on the processing

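The median H3K27ac summit rested on 26 to 27 fragments, and with 2 libraries per matrix no count can pass 0.05. The p-JUN count ratio (log2, stiff over soft, −0.03) turned to 0.10 with −log10 q of at least 10, 0.06 with lists of equal length and 0.14 for bases covered. Leaving out 1 library gave −0.19 to 0.16, turning the sign without soft replicate 1 or stiff replicate 1. The AP-1 difference ran from −6.48 to 2.28 percentage points with 1 library left out, above 0 without soft replicate 2 or stiff replicate 1. Matrix-only p-JUN regions numbered 1 with reciprocal overlap of 50% and 0 to 5 with 1 library left out. The H3K27ac ratio was 0.00 with lists of equal length. The H3K27me3 ratio (−2.32) had no value without soft replicate 1, without stiff replicate 1 or in the block, since a group was then at 0, and otherwise ran from −3.32 to −1.32 with 1 library left out. The log2 difference in fold changed sign under at least 1 alternative in 10 of 19 p-JUN and 7 of 12 H3K4me3 window regions. Without 1 library that of p-JUN ran from 0.14 to 0.52 at IGFBP7 −9.0 kb, from 0.11 to 0.35 at IGFBP1 −2.9 kb, from −0.43 to 0.00 at IGFBP3 −2.7 kb, from −0.07 to 0.14 at IGFBP1 −13.5 kb and from −0.06 to 0.01 at IGFBP6 +2.0 kb, and with recovered fragments it was 0.62 at IGFBP1 −2.9 kb and 0.49 at IGFBP7 −9.0 kb.

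By limma, the recovered fragments gave 10 calls for H3K4me3 (4 higher and 6 lower on stiff) and 0 for p-JUN, and the replicate block gave 5 for H3K27me3, all lower on stiff. The replicate block gave 0 calls for p-JUN and H3K4me3, a p-JUN count ratio of −0.03, an H3K4me3 count ratio of 0.00 and an AP-1 difference of −2.10 percentage points. Equal replicate numbers did not pair the libraries (their deviations correlated at 0.00 in p-JUN, at −0.05 in H3K4me3 and at 0.04 in H3K27me3). In the alternative fits run on all regions, no window region passed, with a lowest adjusted p of 0.103 for p-JUN and 0.141 for H3K4me3. With lists of equal length, chosen after seeing the data, soft-only H3K27ac regions were 2 at IGFBP7 and 1 in the other windows, and stiff-only regions 1 and 2. The H3K27me3 ratio was then −1.58. The cause of these changes was not tested.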
